A study of Mus musculus with 16 samples.

Results

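Synaptic vesicle and neuronal cytoskeleton genes were examined in prostate tissue of TRAMP and wild-type mice. The set holds 37 genes listed by name for their known roles in vesicle release, microtubules, neurofilaments and neuronal RNA binding. Of these, 36 had a probe, out of 16593 genes with a named probe on the array, and Nova1, a neuronal splicing factor, was not analysed here. Each gene was read from 1 probe, the one with the highest mean over the 16 arrays. The members were chosen with earlier results of these data known. Counts set beside the share of all genes therefore describe the set and are not an independent test.

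Neurons and neuroendocrine cells store messengers in vesicles and release them when calcium enters the cell. Synaptotagmin senses the calcium, and the SNARE proteins syntaxin, SNAP-25 and synaptobrevin pull the vesicle onto the membrane while complexins, CAPS and NSF prime or recycle them. Neuronal microtubules carry the vesicles and are tuned by tau, doublecortin and the stathmins. Synaptophysin is used as a pathologist's marker of neuroendocrine tumours, and in the normal gland autonomic nerve fibres run through the stroma.

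TRAMP mice carry SV40 T antigen under the probasin promoter, which is active in prostate epithelium. The carcinoma groups were neuroendocrine carcinomas (NECa) of TRAMP mice given an Angelica gigas extract (AGN, 3 arrays) and NECa of TRAMP mice given vehicle (3 arrays), set against whole prostate of wild-type mice aged 24 to 28 weeks (2 arrays). The strain field of these 2 wild-type arrays reads TRAMP, and they were used as wild type by their genotype label. The dorsal-lateral prostate (DLP) groups were TRAMP mice given AGN, TRAMP mice given the pyranocoumarins decursin and decursinol angelate (D/DA), TRAMP mice given vehicle, and wild-type C57BL/6 mice, with 1 array for each at 16 and at 28 weeks. Doses, the ages of the NECa mice, lesion stages of the DLP samples and any pooling of animals are not given in the sources used here. In bulk tissue, fewer cells of a type and less RNA per cell cannot be told apart.

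The arrays gave normalized intensities whose background was not brought to 0. The lowest value of an array lay between 113 and 139 and its median between 151 and 166, so log2 differences of genes near these levels are compressed. Replicate arrays correlated with r of 0.969 to 0.987 over all probes. The neuroendocrine label was checked on 7 measured markers, whose mean log2 intensity was 9.90 to 10.38 in the 6 NECa and 7.24 to 7.46 in the other 10 arrays. Not every marker followed this mean. Pcsk1 lay between 129 and 152 on all 16 arrays. Scg2 measured 194, 146 and 212 in AGN NECa and 636, 563 and 265 in vehicle NECa, against 167 and 201 in wild-type prostate. Luminal epithelium markers averaged 7.30 to 7.97 in NECa, against 11.93 to 12.10 in wild-type prostate, and smooth muscle markers 8.12 to 10.95, against 12.10 and 12.20. Autonomic ganglion markers (9 measured) averaged 7.59 to 8.27 in NECa, against 7.42 and 7.62 in wild-type prostate. Dbh, which makes noradrenaline, lay between 137 and 161 on all 16 arrays, but some others were higher in carcinomas. Prph ran from 679 to 1715 in NECa, against 209.5 and 368 in wild-type prostate. Phox2a ran from 188 to 476 in AGN NECa and 584 to 793 in vehicle NECa, against 203 and 241. Th reached 979 in vehicle NECa 2, and the remaining markers, Dbh included, lay between 136 and 209 in NECa. The part of nerve cells in the results below was not tested beyond these values.

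Promoter sequences are shown for 6 genes whose windows frame the results: Crmp1, Cplx1, Elavl3 and Stmn3 as 4 of the 10 genes with the largest rise in vehicle NECa, Syn1 as the window with a match to the left part of RE1, and Tubb3 as a gene that stayed near background. REST is a repressor that keeps neuronal genes silent in other cells by binding the RE1 element. Each window runs from 250 bases before to 50 bases after the gene start, from RefSeq on GRCm38.p6, written 5′ to 3′ along the gene. Crmp1 had 2 windows, and the window shown was picked by its number of matches to the motifs named next. Capitals mark a match, on either strand, to TTCAGCACC (left part of RE1), GGACAGC (right part of RE1, GCTGTCC on the other strand) or CAGCTG (an E-box).
Syn1 chrX:20920869-20921168, minus strand: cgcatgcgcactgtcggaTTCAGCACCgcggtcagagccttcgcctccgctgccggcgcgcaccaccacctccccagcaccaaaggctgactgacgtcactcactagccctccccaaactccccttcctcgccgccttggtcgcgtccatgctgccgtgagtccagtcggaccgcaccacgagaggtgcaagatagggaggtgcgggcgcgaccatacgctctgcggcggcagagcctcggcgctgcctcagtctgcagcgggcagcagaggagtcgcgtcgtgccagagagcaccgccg
Crmp1 chr5:37241808-37242107, plus strand: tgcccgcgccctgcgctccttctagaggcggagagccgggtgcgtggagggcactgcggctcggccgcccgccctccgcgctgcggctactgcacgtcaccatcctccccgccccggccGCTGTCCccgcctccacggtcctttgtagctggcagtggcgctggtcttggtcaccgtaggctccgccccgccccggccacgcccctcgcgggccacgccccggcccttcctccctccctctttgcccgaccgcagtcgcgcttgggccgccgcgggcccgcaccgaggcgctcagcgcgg
Cplx1 chr5:108549978-108550277, minus strand: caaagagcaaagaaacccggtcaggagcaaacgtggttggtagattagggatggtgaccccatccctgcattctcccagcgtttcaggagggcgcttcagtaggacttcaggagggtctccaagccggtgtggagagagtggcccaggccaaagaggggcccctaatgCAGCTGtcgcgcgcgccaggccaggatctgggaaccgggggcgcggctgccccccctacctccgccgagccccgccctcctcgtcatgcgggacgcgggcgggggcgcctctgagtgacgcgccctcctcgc
Elavl3 chr9:22051974-22052273, minus strand: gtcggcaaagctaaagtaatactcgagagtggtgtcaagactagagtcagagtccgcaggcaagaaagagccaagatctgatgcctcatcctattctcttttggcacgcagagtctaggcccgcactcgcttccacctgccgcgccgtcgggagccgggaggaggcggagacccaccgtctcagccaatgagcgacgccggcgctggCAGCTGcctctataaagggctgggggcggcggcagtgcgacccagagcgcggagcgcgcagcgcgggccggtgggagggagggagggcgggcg
Stmn3 chr2:181314451-181314750, minus strand: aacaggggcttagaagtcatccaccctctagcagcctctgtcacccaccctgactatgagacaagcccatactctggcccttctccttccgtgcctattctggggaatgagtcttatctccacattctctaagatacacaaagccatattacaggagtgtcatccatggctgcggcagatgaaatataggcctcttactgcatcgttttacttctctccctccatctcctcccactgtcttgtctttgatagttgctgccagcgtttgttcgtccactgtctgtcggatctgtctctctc
Tubb3 chr8:123411303-123411602, plus strand: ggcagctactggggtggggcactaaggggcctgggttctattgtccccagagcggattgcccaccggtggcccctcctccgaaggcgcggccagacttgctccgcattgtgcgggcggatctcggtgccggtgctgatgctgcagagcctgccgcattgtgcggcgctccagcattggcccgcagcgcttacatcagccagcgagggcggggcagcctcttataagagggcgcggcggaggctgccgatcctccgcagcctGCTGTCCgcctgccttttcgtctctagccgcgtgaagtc

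Windows were found for 24 of the 36 measured genes, 40 windows in all, and windows of 1 gene can overlap. CAGCTG was present in 15 of the 40 (37.5%), against 16.3% of all 32851 promoter windows in the table. TTCAGCACC was present in 1 window (2.5%), that of Syn1, against 0.371% of all windows. GGACAGC was present in 2 (5.0%), those of Crmp1 and Tubb3, against 6.56%. Stmn3 held none of the 3 motifs. A match describes these letters only and does not show a site in use, and a window without one says nothing of a factor's part in the gene.

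The first comparison asked how the carcinomas differ from normal gland. In AGN NECa 24 of 36 genes were called higher and 1 lower than in wild-type prostate by limma at an adjusted p under 0.05, where 14.1% of all genes were called higher and 19.3% lower. In vehicle NECa 26 were called higher and 1 lower, where 12.8% of all genes were called higher and 18.8% lower. Both comparisons use the same 2 wild-type arrays. Over the set, the median log2 difference was 1.30 for AGN NECa and 1.71 for vehicle NECa, against 0.03 and -0.01 over all genes. At 2-fold or more, 19 were higher and 1 lower in AGN NECa (5.62% and 9.31% of all genes), and 24 were higher and 0 lower in vehicle NECa (5.51% and 8.7%). The gene called lower in both was Syn2.

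The carcinomas were also set against all other tissue. All 6 carcinomas lay above all 10 other arrays for 24 of the 36 genes (66.7%), which held for 13% of all genes. None lay below all others, which held for 12.9% of all genes. The heat map shows this pattern, with red in the 6 NECa columns and pale or blue colours to the right for most genes.

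**Figure D1:**
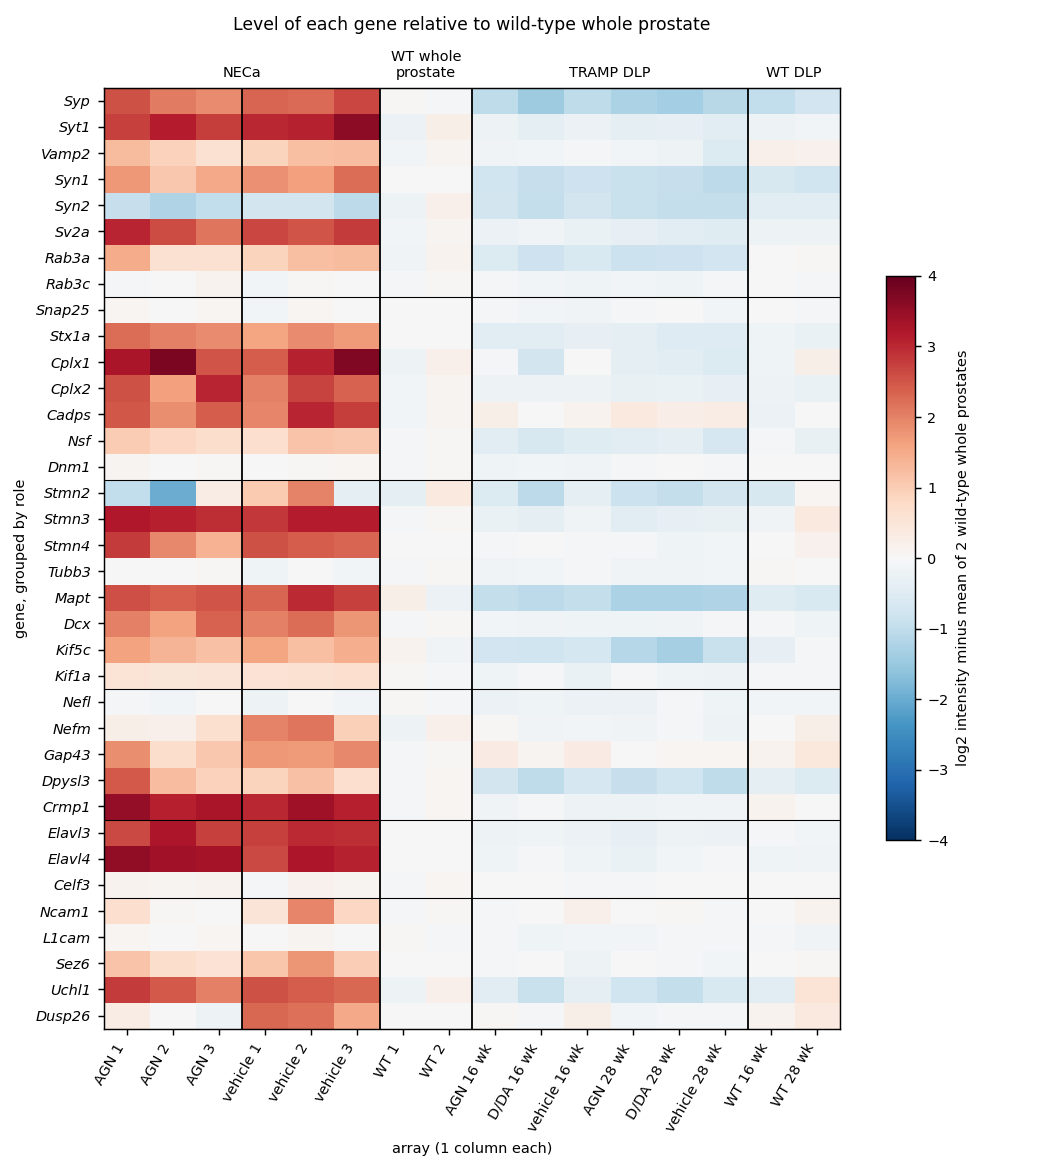
Log2 intensity of the 36 measured genes on 16 arrays, 1 column each, minus the mean of the 2 wild-type whole prostates; rows are grouped by role and colours run from blue (lower) to red (higher). The 6 NECa columns are red for most genes, Syn2 is blue and Snap25, Rab3c, Tubb3, Celf3, L1cam, Dnm1 and Nefl are close to white on all arrays.

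Vesicle proteins were among the genes that rose, 6 of 8 in AGN NECa and 6 of 8 in vehicle NECa. Syt1, the calcium sensor of fast release, measured 1340.4, 1784 and 1372 in AGN NECa 1 to 3, 1627, 1712 and 2430.3 in vehicle NECa 1 to 3, and 172 and 237 in wild-type prostate. In TRAMP DLP its lowest, median and highest values were 150.0, 159.7 and 175, with 176 and 189 in wild-type DLP. Each carcinoma was above every other array, and the log2 difference from wild-type prostate was 2.88 ± 0.22 in AGN NECa and 3.23 ± 0.22 in vehicle NECa (limma adjusted p = 1.89e-06 and 7.78e-07; ± is the standard error of the fit).

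Sv2a, a glycoprotein of vesicle membranes, measured 1687, 1236 and 908 in AGN NECa, 1294, 1174 and 1422 in vehicle NECa, and 190.0 and 220.3 in wild-type prostate. It ran from 147 to 185 in TRAMP DLP (median 167), with 177 and 176 in wild-type DLP. The carcinomas did not overlap the other arrays, and the log2 difference was 2.60 ± 0.23 in AGN NECa and 2.66 ± 0.23 in vehicle NECa (limma adjusted p = 5.06e-06 and 4.4e-06). Syp, the vesicle membrane protein synaptophysin, differed by 2.18 ± 0.21 and 2.43 ± 0.21. Syn1, which tethers vesicles to actin, differed by 1.44 in AGN NECa and 1.90 in vehicle NECa, Vamp2, the synaptobrevin, by 0.93 and 1.10, and Rab3a, a GTPase of release, by 0.89 and 1.11. Without wild-type prostate 1 both Rab3a calls were lost, at 0.75 in AGN NECa (limma adjusted p = 0.144) and 0.97 in vehicle NECa (limma adjusted p = 0.063).

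Syn2, the second synapsin, ran the other way. It measured 199, 164 and 191 in AGN NECa, 229, 229.7 and 185 in vehicle NECa, and 331 and 439 in wild-type prostate. It measured 231, 203, 196, 197, 227 and 196 in TRAMP DLP (AGN, D/DA and vehicle, each at 16 and 28 weeks), with 283 and 285 in wild-type DLP. All 6 carcinomas were below both wild-type prostates and 3 of them were below every TRAMP DLP array. The log2 difference from wild-type prostate was -1.05 ± 0.15 in AGN NECa and -0.83 ± 0.15 in vehicle NECa (limma adjusted p = 0.000195 and 0.00114). Rab3c, a close relative of Rab3a, was near background on every array.

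Of the fusion and recycling machinery, 5 of 7 genes rose in each carcinoma group. Cplx1, a complexin that binds assembled SNAREs, measured 4116, 5831 and 2439.9 in AGN NECa, 2285, 3595 and 5549.9 in vehicle NECa, and 373 and 485 in wild-type prostate. In TRAMP DLP it ran from 255 to 419 (median 319), with 374 and 498 in wild-type DLP. The lowest carcinoma was above every other array, with log2 differences of 3.19 ± 0.38 and 3.07 ± 0.38 (limma adjusted p = 5.06e-05 and 7.28e-05). Its values ranged 2.55-fold over the 6 carcinomas.

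Cadps, which primes dense-core vesicles, measured 1386, 904 and 1322 in AGN NECa, 960.2, 2066 and 1683 in vehicle NECa, and 231 and 266 in wild-type prostate. Values in TRAMP DLP ran from 249 to 324 (median 297), with 209 and 253 in wild-type DLP. The carcinomas were all higher, by 2.25 ± 0.29 log2 units in AGN NECa and 2.59 ± 0.29 in vehicle NECa (limma adjusted p = 0.0001 and 3.61e-05). Cplx2, the other complexin, differed by 2.41 and 2.36, Stx1a, the plasma membrane SNARE syntaxin, by 2.05 and 1.72, and Nsf, the ATPase that takes SNARE complexes apart, by 0.85 and 0.97. Snap25, the third SNARE, and Dnm1, a dynamin of vesicle retrieval, were near background on every array.

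Microtubule and transport genes rose as well, 6 of 8 in each group. Stmn3, a stathmin that binds tubulin, measured 2074, 1932 and 1745 in AGN NECa, 1602, 1995 and 1965 in vehicle NECa, and 218 and 233 in wild-type prostate. In TRAMP DLP its values ran from 168 to 204 (median 181), with 203 and 296 in wild-type DLP. The 6 carcinomas differed among themselves by no more than 1.29-fold and did not overlap the others, and the log2 difference was 3.09 ± 0.16 and 3.03 ± 0.16 (limma adjusted p = 1.29e-07 and 1.44e-07).

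Stmn4, another stathmin, measured 1076, 585 and 402 in AGN NECa, 893, 830.2 and 773 in vehicle NECa, and 152 and 156 in wild-type prostate. The TRAMP DLP arrays ran from 137 to 152 (median 146), with 155 and 172 in wild-type DLP. Every carcinoma was higher, and AGN NECa 3 was the lowest of them; the log2 difference was 2.04 ± 0.31 in AGN NECa and 2.43 ± 0.31 in vehicle NECa (limma adjusted p = 0.000287 and 8.21e-05).

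Mapt, which encodes tau, measured 2945, 2562 and 2812 in AGN NECa, 2439.8, 3841 and 3251 in vehicle NECa, and 571 and 418 in wild-type prostate. Its TRAMP DLP values ran from 201 to 254 (median 225), with 349 and 318 in wild-type DLP. All carcinomas were higher, with log2 differences of 2.50 ± 0.21 and 2.68 ± 0.21 (limma adjusted p = 3.46e-06 and 2.1e-06). Its 4 probes disagreed in size, and in vehicle NECa the other 3 differed by 1.37, 0.23 and 0.23. Dcx, doublecortin, differed by 1.99 and 2.01, with 1 of its 3 probes at -0.04 in vehicle NECa, while Kif5c, a kinesin heavy chain, differed by 1.39 and 1.42 and Kif1a, a kinesin of vesicle precursors, by 0.51 and 0.61. Tubb3, the neuronal beta-tubulin, measured 152, 154 and 158 in AGN NECa, 138, 156 and 143 in vehicle NECa and 149 and 159.6 in wild-type prostate, with TRAMP DLP at 138 to 148 (median 141) and wild-type DLP at 159 and 157. The carcinomas overlapped wild-type prostate and every TRAMP DLP array was below both wild-type DLP arrays, with all values near background.

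Of 5 neurofilament and growth cone genes, 3 rose in each group. Crmp1, a collapsin response mediator that shapes axon growth, measured 1765, 1312 and 1478 in AGN NECa, 1227, 1589 and 1323 in vehicle NECa, and 144 and 163 in wild-type prostate. TRAMP DLP ran from 133 to 148 (median 139), with 167 and 155 in wild-type DLP. The carcinomas were all higher, with log2 differences of 3.30 ± 0.18 and 3.16 ± 0.18 (limma adjusted p = 1.51e-07 and 1.99e-07), and its second probe gave 1.49 in vehicle NECa. Gap43, a growth cone protein, differed by 1.22 and 1.79. Dpysl3, another collapsin response mediator, was called in AGN NECa (1.53 ± 0.36, limma adjusted p = 0.00574) and had 0.91 ± 0.36 in vehicle NECa (limma adjusted p = 0.0831), without a called difference between the groups (0.62 ± 0.33, adjusted p = 0.885), and AGN NECa 1 held the highest value, 2178, against 635 to 942 in the other 5. Nefl, the light neurofilament subunit, measured 147, 139 and 153 in AGN NECa, 131, 152 and 141 in vehicle NECa and 155 and 145 in wild-type prostate, with TRAMP DLP at 127 to 143 (median 131) and wild-type DLP at 138 and 140.2. The carcinomas overlapped wild-type prostate, with all values near background.

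Both ELAV-like genes of the set rose. Elavl4, the HuD protein that stabilises neuronal transcripts, measured 1822, 1601 and 1570.5 in AGN NECa, 977, 1471 and 1321 in vehicle NECa, and 153 and 158 in wild-type prostate. In TRAMP DLP its values ran from 130.4 to 150.3 (median 142), with 137 and 142 in wild-type DLP. No carcinoma overlapped the others. The log2 difference was 3.42 ± 0.19 in AGN NECa and 2.99 ± 0.19 in vehicle NECa (limma adjusted p = 1.53e-07 and 3.66e-07), with 2.14 and 0.53 for its other 2 probes in vehicle NECa. On the probe used the 3 AGN NECa were all above the 3 vehicle NECa, whereas on the other 2 probes these groups overlapped.

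Elavl3, the HuC protein, measured 1037, 1577 and 1112 in AGN NECa, 1117, 1327 and 1304 in vehicle NECa, and 163 and 170.3 in wild-type prostate. Values in TRAMP DLP ran from 132 to 147 (median 143), with 159.9 and 153 in wild-type DLP. The carcinomas were again higher than all others, with log2 differences of 2.87 ± 0.19 and 2.90 ± 0.19 (limma adjusted p = 6.04e-07 and 5.52e-07). Celf3, a splicing factor, was near background on every array.

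Among surface and enzyme genes, Uchl1, a neuronal ubiquitin hydrolase, differed by 2.42 in both groups and Sez6, a membrane protein of dendrites, by 0.82 and 1.28, while L1cam, a neural adhesion molecule, was near background. Of these 5 genes, 2 rose in AGN NECa and 4 in vehicle NECa, with Dusp26 and Ncam1 the ones called in vehicle NECa alone. In the plot of differences by role, most points lie to the right of 0 for both groups, and Dusp26, Nefm, Ncam1 and Stmn2 show the widest gap between the markers.

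**Figure D2:**
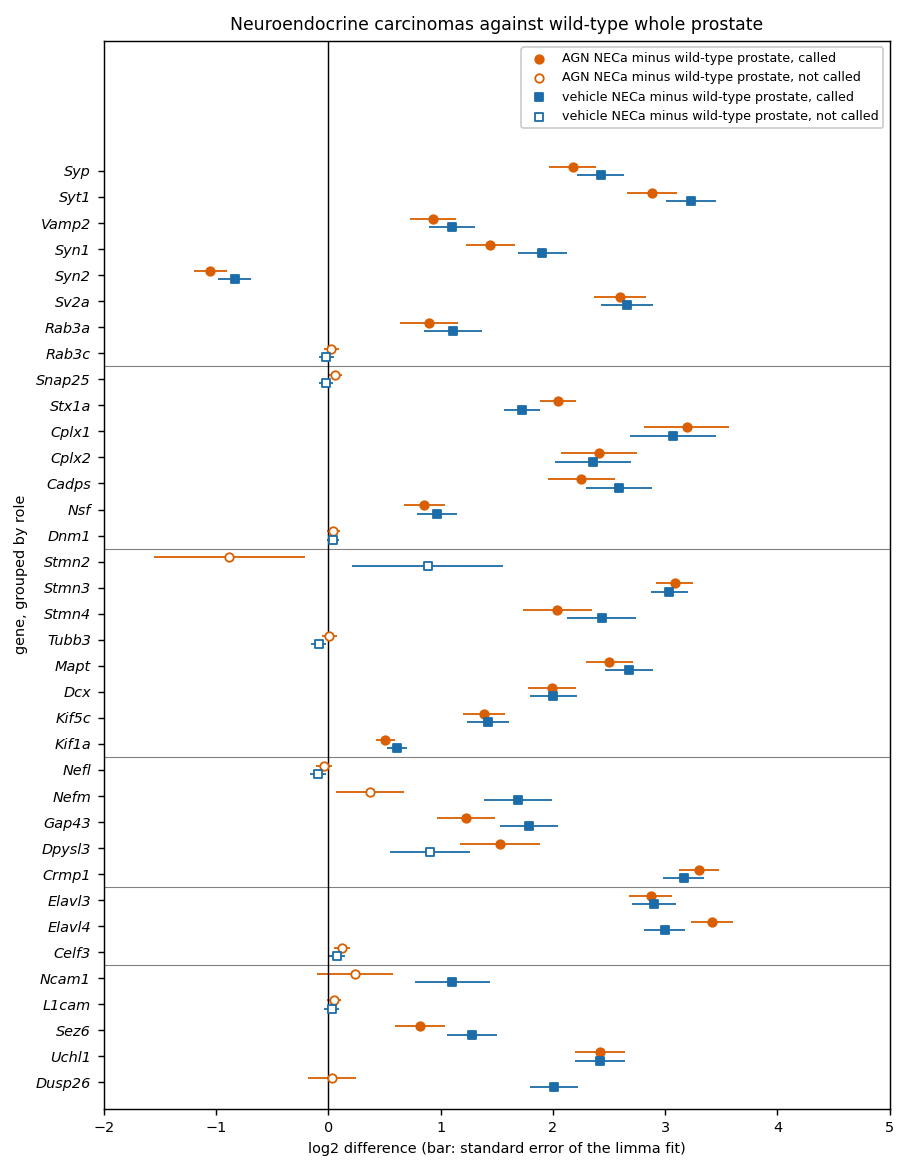
Log2 difference of each of the 36 genes between NECa and wild-type whole prostate, grouped by role; orange circles are AGN NECa, blue squares vehicle NECa, bars are standard errors of the limma fit (3 carcinomas and 2 prostates) and filled markers are called. The largest values are near 3, Syn2 lies below 0, and Dusp26 is at 0.03 in AGN NECa and 2.01 in vehicle NECa.

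Near background on every array were 7 of the 36 genes, namely Snap25, Rab3c, Tubb3, Celf3, L1cam, Dnm1 and Nefl, none of which passed the median probe of any array and which lay between 127 and 161. A difference in these genes would be compressed on this scale, and 0 of the 7 were called against wild-type prostate in either NECa group. In NECa against TRAMP DLP 6 of the 7 were called higher, with differences of 0.07 to 0.16 over the 7, which is close to the 0.12 by which the median of all genes was shifted.

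The carcinomas also differed among themselves. The median difference from wild-type prostate over the 36 genes was 1.679, 0.993 and 0.997 in AGN NECa 1 to 3 and 1.658, 1.920 and 1.497 in vehicle NECa 1 to 3. The number of genes at least 2-fold above the wild-type mean was 23, 18 and 18 in AGN NECa and 22, 27 and 22 in vehicle NECa, while 5.54% to 6.21% of all genes were that high. AGN NECa 1 held the highest value of the 6 for 12 genes and vehicle NECa 2 for 10, whereas vehicle NECa 1 held the lowest for 13. Among those 13 were Snap25, Rab3c, Tubb3, Celf3, L1cam and Nefl, which were near background on every array, so the count partly reflects background. Vehicle NECa 1 also had the highest means of smooth muscle, fibroblast and macrophage markers among the carcinomas (log2 10.95, 9.59 and 9.96), and their part in these values was not tested.

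The treatment comparison asked whether AGN changed these genes in the carcinomas. Of 36 genes, 1 was called lower in AGN NECa than in vehicle NECa and 0 higher by limma, where 0.0482% and 0.0121% of all genes were called, and 8 had an unadjusted p under 0.05, as did 6.76% of all genes. Without vehicle NECa 3 the count of lower genes was 2. The median log2 difference was -0.05, against 0.04 over all genes. In 3 genes the AGN values lay wholly below the vehicle values (Nefm, Kif1a and Dusp26), which held for 4.6% of all genes, and in 2 wholly above (Stx1a and Elavl4), which held for 6.76%.

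Dusp26, a phosphatase expressed in neural tissue, was the gene called. It measured 218, 179 and 155 in AGN NECa, 876, 812 and 514 in vehicle NECa, and 176 and 180.0 in wild-type prostate. The TRAMP DLP arrays ran from 166 to 208 (median 173), with 195 and 234 in wild-type DLP. The vehicle carcinomas stood above all other arrays, AGN NECa 1 and 2 lay within the range of the prostate and DLP arrays, and AGN NECa 3 lay just below it. The log2 difference of AGN from vehicle NECa was -1.97 ± 0.20 (limma adjusted p = 0.0073). Its call was kept when any single array was left out and was lost with each array centred on its median (adjusted p = 0.0505), with normexp background correction (0.0667), with only the brighter probes tested (0.0659) and without vehicle NECa 1 and AGN NECa 2 together (0.0892).

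Nefm, the medium neurofilament subunit, measured 216, 210.4 and 286 in AGN NECa, 721, 806 and 349 in vehicle NECa, and 158 and 209 in wild-type prostate. Its TRAMP DLP values ran from 157 to 189 (median 168), with 179 and 212 in wild-type DLP. The AGN values lay under the vehicle values without overlap, yet the log2 difference of -1.32 ± 0.27 missed the threshold (limma adjusted p = 0.163). Against wild-type prostate it was 1.69 ± 0.30 in vehicle NECa (adjusted p = 0.00108) and 0.37 ± 0.30 in AGN NECa (adjusted p = 0.415).

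Stmn2, a stathmin of growth cones, had the widest range over the carcinomas, 15.8-fold. It measured 376, 187 and 916 in AGN NECa, 1513, 2954 and 571 in vehicle NECa, and 560.4 and 974 in wild-type prostate. TRAMP DLP ran from 355 to 559.6 (median 425), with 477 and 786 in wild-type DLP. The carcinoma groups overlapped, and neither differed from wild-type prostate by limma (-0.88 ± 0.67 in AGN NECa, adjusted p = 0.381, and 0.89 ± 0.67 in vehicle NECa, adjusted p = 0.416) or from the other carcinoma group (AGN minus vehicle -1.77 ± 0.60, adjusted p = 0.563).

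Ncam1, the neural cell adhesion molecule, measured 249, 162 and 159.8 in AGN NECa, 227, 613 and 281 in vehicle NECa, and 154 and 161 in wild-type prostate. Values in TRAMP DLP ran from 153 to 183 (median 156), with 159 and 176 in wild-type DLP. Vehicle NECa 2 was the highest and AGN NECa 1 lay among the vehicle values. The log2 difference from wild-type prostate was 1.10 ± 0.34 in vehicle NECa (limma adjusted p = 0.028), a call lost without either wild-type array (adjusted p = 0.116 and 0.0926), and its second probe gave 0.38. AGN NECa differed from vehicle NECa by -0.87 ± 0.31 (limma adjusted p = 0.621).

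Of the 9 measured autonomic ganglion markers, 1 was called higher in AGN NECa (Prph) and 2 in vehicle NECa (Prph and Phox2a) than in wild-type prostate, and 0 lower in either. Over all genes 14.1% were called higher and 19.3% lower in AGN NECa, and 12.8% higher and 18.8% lower in vehicle NECa. Prph, the peripherin filament of peripheral neurons, measured 735, 875 and 679 in AGN NECa and 1059.8, 1715 and 989 in vehicle NECa, against 209.5 and 368 in wild-type prostate, with log2 differences of 1.45 and 2.13. Th, which makes catecholamines, measured 167, 153 and 266 in AGN NECa and 153, 979 and 200.1 in vehicle NECa, against 195 and 216 in wild-type prostate, with vehicle NECa 2 the highest. Phox2a, an autonomic transcription factor, measured 188, 189 and 476 in AGN NECa and 599, 793 and 584 in vehicle NECa, against 203 and 241 in wild-type prostate. For Prph and Phox2a the AGN values lay below the vehicle values without overlap, which held for 4.6% of all genes. For Dbh and Slc18a3 they lay above without overlap (log2 differences 0.08 and 0.17), which held for 6.76% of all genes. Between these groups 0 of the 9 were called by limma (2 at an unadjusted p under 0.05). Besides Prph, Th and Phox2a, the 6 markers Dbh, Chrna3, Chrnb4, Slc18a3, Chat and Hand2 lay between 136 and 209 in NECa. The part of these markers in the differences of Dusp26, Nefm and Stmn2 was not tested.

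**Figure D3:**
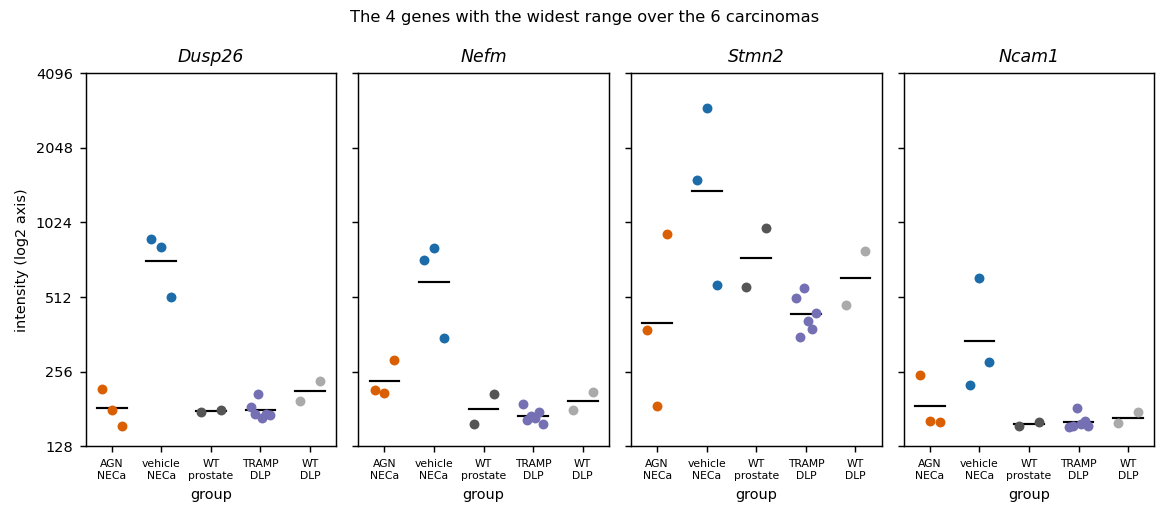
Intensity of Dusp26, Nefm, Stmn2 and Ncam1 on a log2 axis, 1 point per array, with a line at the geometric mean of each group. Dusp26 is high in the 3 vehicle NECa only, Nefm is higher in vehicle than in AGN NECa, and Stmn2 and Ncam1 are spread within groups.

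Against TRAMP DLP of vehicle and AGN mice, 33 of 36 genes were called higher in NECa and 0 lower by limma, but 54.5% of all genes were called higher and 20.9% lower in this comparison. The median over all genes was 0.12 and that of the set 1.88. The carcinoma and DLP arrays form 2 sets, and tissue and any difference between the sets of arrays cannot be told apart. At 2-fold or more 24 genes were higher and 0 lower, where 5.41% and 7.32% of all genes were, and after quantile normalization of the arrays 26 were called higher. The largest difference was that of Mapt at 3.68 ± 0.14 (limma adjusted p = 1.9e-10), followed by Crmp1 and Syp at 3.40 each, Cplx1 at 3.39, Elavl4 at 3.37 and Syt1 at 3.36. Not called were Syn2 (-0.11 ± 0.09), Stmn2 (0.64 ± 0.49) and Tubb3 (0.07 ± 0.04).

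The DLP arrays set TRAMP lobes of unstated lesion stage against wild-type lobes. By limma with age as a term, 0 of 36 were called higher and 4 lower in vehicle TRAMP DLP, where 3.41% and 5.15% of all genes were called, and 17 had an unadjusted p under 0.05, as did 29.6% of all genes. The 4 were Rab3a, Mapt, Syn2 and Crmp1. The median was -0.18, against -0.07 over all genes.

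Rab3a measured 573 and 512 at 16 and 28 weeks in vehicle TRAMP DLP, against 877 and 893 in wild-type DLP, and 591 and 483 in AGN and 485 and 490.1 in D/DA TRAMP DLP. The log2 difference of vehicle from wild type was -0.71 ± 0.12 (limma adjusted p = 0.0104), and the groups did not overlap. In NECa it had 2419, 1322 and 1312 in AGN and 1599, 1983 and 2084 in vehicle mice, against 786 and 958 in wild-type prostate, higher in every carcinoma.

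Mapt measured 254 and 211 in vehicle TRAMP DLP, against 349 and 318 in wild-type DLP, a log2 difference of -0.52 ± 0.08 (limma adjusted p = 0.00872) that its second probe put at -0.20 (adjusted p = 0.12). The remaining Mapt probes gave -0.11 and -0.005, and 1 of its 4 probes was called. Syn2 measured 227 and 196, against 283 and 285, a difference of -0.43 ± 0.09 (adjusted p = 0.0264). Crmp1 measured 134 and 139, against 167 and 155, a difference of -0.24 ± 0.05 (adjusted p = 0.0343) near background, and its second probe gave -0.18 (limma adjusted p = 0.146). For each of these genes both vehicle TRAMP arrays were below both wild-type arrays, and each of the 4 calls was lost when some single array was left out. Without the vehicle array of 16 or of 28 weeks 0 genes were called, 2 without the AGN array of either age, and 10 without the wild-type array of 16 weeks.

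At single ages, with 1 array per group and no test, 27 of 36 genes were lower in vehicle TRAMP than in wild-type DLP at 16 weeks and 32 at 28 weeks, when 72.3% and 63.2% of all genes were lower. Lower at both ages were 25 of 36, and 52.5% of all genes. The lowest was Uchl1 at 28 weeks with a log2 difference of -1.16. It measured 426 in vehicle TRAMP DLP, against 954 in wild-type DLP, and at 16 weeks 493 in vehicle TRAMP DLP, against 478 in wild-type DLP. Smooth muscle markers averaged 11.12 to 11.55 in TRAMP DLP, against 11.82 and 12.03 in wild-type DLP. In vehicle TRAMP DLP all 7 were lower than in wild type, 1 of them called by limma and 6 at an unadjusted p under 0.05. Autonomic ganglion markers averaged 7.27 to 7.41 in TRAMP DLP, against 7.40 and 7.48, with 0 of 9 called by limma (1 at an unadjusted p under 0.05). Luminal epithelium markers averaged 10.40 to 11.05 in TRAMP DLP, against 11.64 and 11.84 in wild-type DLP. In vehicle TRAMP DLP 2 of 5 were called lower, the secretory genes Pbsn (-3.09) and Tgm4 (-1.82). The other 3 were not called. At 16 and 28 weeks Krt8 measured 6845 and 6732 in vehicle TRAMP DLP, against 6061 and 5569.8 in wild-type DLP. Krt18 measured 5116 and 4353, against 5171 and 4947, and Cd24a 158 and 175, against 165 and 201. Adipocyte markers averaged 7.60 to 9.61 in TRAMP DLP, against 7.26 and 8.07 in wild-type DLP. Of these 6 markers 4 were called at least 2-fold higher in vehicle TRAMP DLP, with a median of 1.45 and the largest differences in the brown fat genes Cidea (2.69) and Ucp1 (2.57). Skeletal muscle markers averaged 8.22 and 11.28 in wild-type DLP at 16 and 28 weeks, against 11.16 and 9.27 in vehicle TRAMP DLP. Their difference thus changed sign between the ages, and 0 of the 9 were called by limma. The part of these cell types in the DLP differences was not tested.

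**Figure D4:**
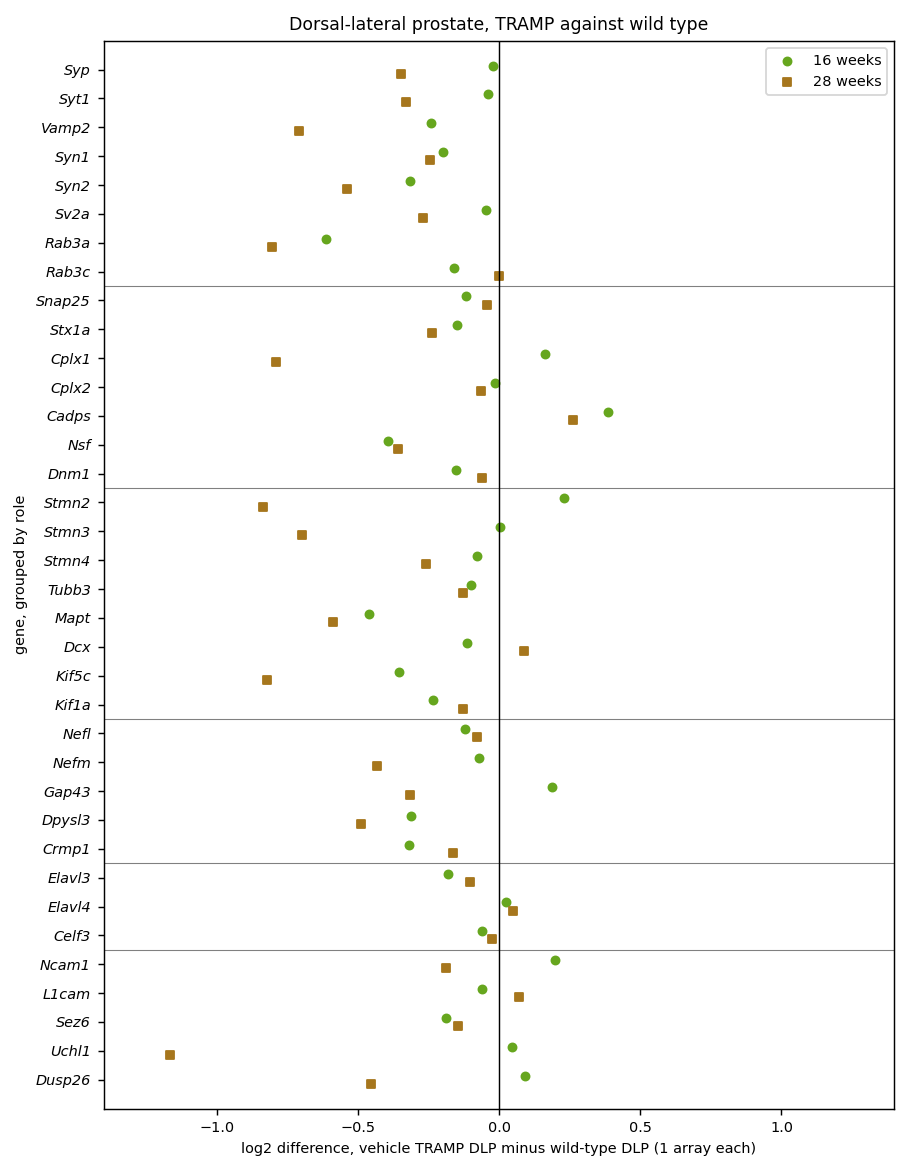
Log2 difference of each of the 36 genes between vehicle TRAMP and wild-type DLP at 16 weeks (green circles) and 28 weeks (brown squares), from 1 array per group, so without error bars. Most points lie left of 0, more of them at 28 weeks, and Uchl1 at 28 weeks lies lowest.

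No gene was called for either treatment in DLP. Besides the 7 genes near background on every array, Cplx2, Stmn4, Elavl3, Elavl4, Dcx, Kif1a, Crmp1 and Sez6 lay between 122 and 152 in TRAMP DLP. Differences of these genes between DLP groups would be compressed as well. By limma 0 of 36 genes were called in AGN against vehicle TRAMP DLP (0% of all genes in either direction; 1 of the 36 and 4.71% of all genes had an unadjusted p under 0.05) and 0 in D/DA against vehicle (0% of all genes; 3 and 8.14% had an unadjusted p under 0.05). DLP of 28 against 16 weeks gave 0 in either direction (0.0663% of all genes higher and 0.0301% lower; 6 and 9.93% had an unadjusted p under 0.05). The AGN effect in NECa minus that in DLP was called for 0 genes (0.0121% in either direction; 5 and 5.53% had an unadjusted p under 0.05). For Dusp26 it was -1.87 ± 0.28 (limma adjusted p = 0.0503), with DLP values of 184 and 166 under AGN, against 208 and 171 under vehicle.

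Other genes of the same machinery were counted from lists that hold no member of the set. Of 39 other release genes 11 were higher and 11 lower in AGN NECa than in wild-type prostate, and 11 were higher and 9 lower in vehicle NECa, with medians of 0.04 in both. Over all genes 14.1% were higher and 19.3% lower in AGN NECa, and 12.8% higher and 18.8% lower in vehicle NECa, which also serve the lists that follow. Slc32a1, the vesicular GABA transporter, measured 2208, 426 and 605 in AGN NECa, 1588, 3251 and 2134 in vehicle NECa, and 152 and 149 in wild-type prostate, and every carcinoma was higher. Syt11, a synaptotagmin, had log2 differences of 3.41 and 3.45, whereas Rab3d, a Rab3 form of exocrine granules, had -2.82 and -2.93 and Unc13b, a priming factor, -2.95 and -2.73.

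Of 26 other cytoskeleton genes 14 were higher in each NECa group, with 4 lower in AGN NECa and 3 in vehicle NECa. Dpysl2, a collapsin response mediator, differed by 3.39 and 3.50, the dendritic microtubule protein gene Map2 by 3.09 and 3.01, Dpysl5 by 3.15 and 2.93 and the neurofilament partner Ina by 2.13 and 2.89. In DLP, Map2 measured 776 to 922 on the 6 TRAMP arrays, against 419.9 and 400.1 in wild type, and was higher in vehicle TRAMP with a log2 difference of 1.15 ± 0.11 (adjusted p = 0.000859 by limma). Of 15 other neuronal RNA-binding genes 6 were higher and 2 lower in each group, among them Rbfox1 (2.85 and 3.01), Elavl2 (2.92 and 2.72) and Celf4 (2.40 and 2.29), while Elavl1, the ELAV-like form present in most tissues, had -2.06 and -2.02. In the REST complex list 4 of 7 genes were higher in each group and none lower, with Hdac2, a histone deacetylase, at 1.80 and 1.68, Kdm1a, a histone demethylase, at 0.96 and 0.87, the corepressor gene Sin3a at 0.91 and 0.82 and Rcor2, a CoREST form, at 0.35 and 0.37. Rest itself measured 130.5 to 157 on all 16 arrays and Srrm4, a neuronal splicing factor, 133 to 168, both near background. In AGN against vehicle NECa 0 genes of these 4 lists were called by limma, with 5, 5, 0 and 0 at an unadjusted p under 0.05, which 6.76% of all genes had. In vehicle TRAMP against wild-type DLP 4 of the 39 release genes were lower, and 2 cytoskeleton genes were higher and 3 lower, where 3.41% of all genes were higher and 5.15% lower.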

How the data were processed

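Total RNA of prostate tissue was labelled as biotinylated cRNA and read on 16 Illumina bead arrays, per the labels' protocols. The authors deposited linear normalized intensity values for 25697 probes. The tool was lumi, per the submitters' processing notes, and the normalization method is not given in the sources used here. Another table, of signals and detection p-values, was left out: its 32 per-sample columns matched no label.

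After log2 transformation, limma 3.58.1 (R 4.3.3, lmFit, eBayes with intensity trend, two-sided) was run for 9 comparisons. P-values were adjusted by Benjamini-Hochberg across the 25697 probes, and those under 0.05 were called. NECa were compared with wild-type prostate in a fit of 8 arrays, AGN with vehicle NECa on 6, and DLP groups on 8 with additive age and treatment. NECa against TRAMP DLP used 10 arrays with a treatment term, and the difference of AGN effects used all 16. The fit was also run on simulated normal noise with added shifts, which cannot test differences in tissue content or compression near background. The labels do not say whether replicates came from separate animals, so the p-values reflect only how these samples vary, and the number of arrays limits precision. Figures were drawn with matplotlib 3.10.9.

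Members and lists were chosen with earlier results of these data known. Values by array are given for the 10 largest differences of vehicle NECa from wild-type prostate and its 3 lowest, members called in AGN against vehicle NECa or in DLP, and the 4 widest ranges over the carcinomas. Of other lists, the 4 largest differences are named, with Rest and Srrm4. One item is not reported here. Genes outside this rule were named to account for every member or as cell markers. Map2 in DLP, Prph, Th and Phox2a by array and the DLP markers named with values were chosen after their values were seen. Alternatives covered normalization, background, dim probes, the variance trend, array weights, the second probe, a 2-fold minimum, other arrays in the fit, a replicate block and each array left out. The AGN and vehicle numbers were not used to pair the carcinomas in the main fit.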

Additional observations from a re-analysis of the deposited data

Results flagged for a closer look

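In 72 groups of 6 arrays (36 genes over 6 NECa and over 6 TRAMP DLP), 5 held an array set apart by a gap that was large against the range of the group, where chance flags about 1 in 20. Dpysl3 measured 2178 in AGN NECa 1 and 635 to 942 in the other 5 carcinomas (gap over range 0.68). Celf3 was lowest in vehicle NECa 1, at 135 against 148 to 155 (0.649), near background. In TRAMP DLP, Vamp2 was lowest under vehicle at 28 weeks, at 585 against 739 to 821 (0.691), and Elavl3 was lowest under AGN at 28 weeks, at 132 against 141 to 147 (0.63), near background. Ncam1 was highest under vehicle at 16 weeks, at 183 against 153 to 162 (0.656).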

How the results depend on the processing

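The counts of genes higher in NECa kept within 1.5 times under every alternative. Without single arrays they ran from 24 to 27 in vehicle NECa and 22 to 24 in AGN NECa against wild-type prostate, and 31 to 34 against TRAMP DLP. Of 884 values for 47 calls of single genes, 832 kept their call, 52 lost it and 0 reversed. Without 1 array, calls were lost for Rab3a and Ncam1 (vehicle NECa), Rab3a and Sez6 (AGN NECa), and Rab3c and Ncam1 (NECa against DLP). Under normexp the median of all probes shifted by -0.20 in vehicle NECa and -0.21 in AGN NECa, and 4 genes were lower in each; at 2-fold 0 were lower in vehicle NECa. For AGN against vehicle NECa, the lower count was 0 under median centring, normexp, brighter probes and without vehicle NECa 1 and AGN NECa 2, 3 (with 5 higher) under array weights, whose fit did not fully converge, and 1 to 2 without single arrays (2 without vehicle NECa 3). With the replicate number as a block it was 4, and 502 probes were called, against 10 without the block. Same-numbered AGN and vehicle arrays correlated at -0.03, -0.231 and 0.16 in their deviations. With so few arrays these values cannot settle whether equal numbers stand for a pairing. For vehicle TRAMP against wild-type DLP, the lower count was 2 under median centring, array weights and the second probe, 0 at 2-fold and in a fit of all 16 arrays, and 0 to 10 without single arrays (2 without the AGN array of either age), with 1 higher under median centring, brighter probes and no trend. For 28 against 16 weeks it was 0 to 1 (1 without either wild-type array), and for the difference of AGN effects 3 under array weights and 0 to 2 without single arrays (2 without vehicle NECa 3 and 1 without vehicle NECa 1, AGN NECa 1 or vehicle DLP of 16 weeks). Low signal over background limits 7 of the 36 genes on every array, and further genes in DLP.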
